A study of Homo sapiens with 32 samples.

Results

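The cyclin-dependent kinases (CDKs) of transcription and their cyclins were followed at the level of RNA in 4 human endometrial cancer cell lines treated with a CDC-like kinase (CLK) inhibitor, a taxane, or both. The genes were chosen by name: the kinases CDK7, CDK9, CDK12 and CDK13 and the cyclins CCNH, CCNK, CCNL1, CCNL2, CCNT1 and CCNT2, which are 10 of the 35238 rows of the expression table. All 10 were among the 17011 genes that passed the filter on low values (more than 1 read per 1000000 counted, CPM, in at least 2 libraries). The choice was made with earlier results of these data known. The lowest level of any of them in any library was 15.2 CPM.

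RNA polymerase II carries a long C-terminal tail whose phosphorylation changes as the enzyme leaves the promoter and moves along a gene, and splicing factors are recruited to the phosphorylated tail. CDK7 with cyclin H (CCNH) acts at initiation as part of the factor TFIIH and also activates other CDKs. CDK9 with cyclin T1 or T2 (CCNT1, CCNT2) forms P-TEFb, the kinase that releases paused polymerase. CDK12 and CDK13 each pair with cyclin K (CCNK) and sustain elongation on long genes, many DNA repair genes among them. Cyclins L1 and L2 (CCNL1, CCNL2) partner the CDK11 kinases and are found in nuclear speckles with the SR splicing proteins, which CLKs phosphorylate.

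The lines were Ishikawa, labelled CTNNB1-wildtype, and Ishikawa-S33Y, SNGM and HEC265, labelled CTNNB1-mutated; CTNNB1 encodes beta-catenin. Each line received 0.1% DMSO (vehicle), paclitaxel, which stabilises microtubules, SM08502, the CLK inhibitor, or the combination, for 24 h, with 2 libraries per group and 32 in all. Each drug was given at the line's own half-inhibitory concentration for viability. Ishikawa received 11 nM paclitaxel and 80 nM SM08502, and Ishikawa-S33Y 6 nM and 85 nM. SNGM received 11.7 nM and 350.7 nM, and HEC265 5.6 nM and 149 nM. Libraries were made from 350 ng of RNA in Ishikawa and 500 ng in the other lines, so a difference between lines cannot be told apart from one of dose or, for Ishikawa, of RNA input. Cells were plated in duplicate, and the labels do not say whether the duplicates were separate experiments, so p-values measure the spread between these libraries, which may be technical. Only 1 of the 4 lines is labelled wildtype for CTNNB1.

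Depth was 13.03 M to 34.1 M reads (M is 1000000) in 30 libraries. Combination replicate 2 of Ishikawa-S33Y had 2.99 M reads and that of SNGM 1.61 M, where 1 read was worth 0.622 CPM. The epithelial genes EPCAM, KRT8, KRT18, KRT19, CDH1 and CLDN4 were at 31.4 CPM or more in every library and MUC1 at 2.55 to 24.5 CPM, while of the endometrial markers PAX8 was at 64.4 CPM or more throughout and SOX17 was at 0 in 7 libraries, with a median of 0 in SNGM. EMX2 and ESR1 had medians of 0.746 and 2.01 CPM in SNGM and 0.188 and 0.130 CPM in HEC265, and FOXA2 reached at most 9.85 CPM. Of the leukocyte, endothelial and stromal markers, CD3E and PTPRC reached at most 0.444 and 2.38 CPM, CD68 lay between 3.30 and 50.4 CPM, and COL1A1 had a median of 970.6 CPM in Ishikawa-S33Y and 66.4 CPM or less in the other lines. PECAM1, VWF, COL3A1 and PDGFRB reached at most 4.31, 8.35, 4.69 and 0.890 CPM. Several of the genes here are long, so each library was also given a length score, in which the average log2 level over 77 ribosomal protein genes is subtracted from the average over 32 genes with long transcripts. It lay between -2.94 and -1.40 in Ishikawa, below the values in SNGM (-0.47 to 0.29) and HEC265 (-1.12 to -0.55). CPM are shares of a library, so a change in the total RNA per cell would not be seen, and levels are compared here between libraries, not between genes.

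The stretches upstream of 4 of these genes are shown because the 4 carry the results that follow: CDK9 and CCNT2 lay higher in every library with SM08502 than in those without it in the same line, and CCNL1 and CCNL2 set SNGM apart from the other lines. Each is the 120 bases before the RefSeq start of the gene (build GRCh38.p14), 5′ to 3′ on the gene's own strand. The positions are chr9:127785914-127786033 (plus strand) for CDK9, chr2:134918702-134918821 (plus) for CCNT2, chr3:157160148-157160267 (minus) for CCNL1 and chr1:1399336-1399455 (minus) for CCNL2. Capitals mark matches, on either strand, to any of the motifs searched.
CDK9: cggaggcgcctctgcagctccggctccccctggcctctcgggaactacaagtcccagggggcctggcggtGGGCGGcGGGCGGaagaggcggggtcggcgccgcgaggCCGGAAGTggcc
CCNT2: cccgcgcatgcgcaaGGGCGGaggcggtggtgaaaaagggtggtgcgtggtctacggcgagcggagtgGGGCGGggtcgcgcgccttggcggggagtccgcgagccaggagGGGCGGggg
CCNL1: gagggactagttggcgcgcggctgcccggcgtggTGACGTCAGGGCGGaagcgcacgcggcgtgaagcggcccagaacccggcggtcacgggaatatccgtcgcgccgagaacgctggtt
CCNL2: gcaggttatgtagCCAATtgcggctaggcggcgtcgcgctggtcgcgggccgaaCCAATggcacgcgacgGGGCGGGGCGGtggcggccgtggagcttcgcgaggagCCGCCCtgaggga

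The search covered 250 bases before the start of 27305 RefSeq promoters, including those of all 10 genes. The cAMP response element TGACGTCA was found in 1.77% of all promoters and, among the 10, only in CCNL1, from 86 to 79 bases before the start. The ETS site CCGGAAGT was found in 3.64% of promoters and in CDK9, from 12 to 5 bases before the start, and CCNT1. The E-box CACGTG occurred in 6.49% of promoters and in CDK7 and CCNT1. The short CCAAT motif was present in 33.04% of promoters and in CCNK, CCNL2, CCNT1 and CCNT2, and the GC box GGGCGG was present in 42.3% of promoters and in 9 of the 10 genes, all but CDK12. The GC box follows the cAMP element directly in CCNL1, and a pair of GC boxes shares a base in CCNL2. The TATA motif TATAAA was found in 11.1% of promoters and in none of the 10. A match is a description of letters, and binding was not measured.

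On vehicle, the lines differed in these genes by amounts that depended on the gene. Of 60 differences (10 genes in 6 pairs of lines), 33 were called at an adjusted p under 0.05 (limma on log2(CPM + 1), adjusted by Benjamini-Hochberg over all 17011 genes). By pair, 6 genes differed between Ishikawa-S33Y and Ishikawa (48.3% of all genes did), 7 between SNGM and Ishikawa (66.8%), 6 between HEC265 and Ishikawa (63.3%), 6 between SNGM and Ishikawa-S33Y (60.8%), 3 between HEC265 and Ishikawa-S33Y (58.0%) and 5 between HEC265 and SNGM (54.9%). These shares lie around those of all genes.

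The cyclins of splicing showed the widest spread. CCNL1 on vehicle was at 102.8 ± 2.83 CPM in SNGM (SD, n = 2 here and below), 44.5 ± 4.84 in Ishikawa, 33.6 ± 1.28 in HEC265 and 25.5 ± 1.18 in Ishikawa-S33Y, and each neighbouring step was called (limma adjusted p of 1.0e-09, 0.0020 and 0.0026). The step from Ishikawa to HEC265, of -0.39, was not called with re-centred medians (-0.18, limma adjusted p = 0.21), with the length score (-0.34, 0.079) or without Ishikawa vehicle replicate 2 (-0.28, 0.051). CCNL2 was at 43.0 ± 4.11 CPM in SNGM and between 17.4 and 19.6 CPM in the other lines, whose neighbours in the order did not pass the test. SNGM was therefore the high line for both cyclins L, by 1.19 and 1.25 on the log2 scale over Ishikawa for CCNL1 and CCNL2.

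Among the P-TEFb genes, CDK9 was at 43.3 ± 4.90 CPM in SNGM and 42.7 ± 1.24 in HEC265, and at 27.5 ± 0.772 in Ishikawa-S33Y and 24.6 ± 0.0255 in Ishikawa. The step between HEC265 and Ishikawa-S33Y was called (limma adjusted p = 3.0e-04), while the neighbours on either side of it were not. With the length score, CDK9 lost its calls for SNGM (0.12, limma adjusted p = 0.66) and HEC265 (0.29, 0.13) against Ishikawa. It also lost that for SNGM against Ishikawa-S33Y (0.29, limma adjusted p = 0.056). CCNT2, in contrast, was at 62.7 ± 0.589 CPM in SNGM, 44.9 ± 1.71 in Ishikawa, 36.9 ± 2.14 in HEC265 and 35.2 ± 0.278 in Ishikawa-S33Y, where the last step was not called. The step from Ishikawa to HEC265, of -0.28, fell to -0.06 with re-centred medians (limma adjusted p = 0.68) and was not called with the length score (-0.19, 0.25) or without Ishikawa vehicle replicate 2 (-0.24, 0.073) or HEC265 vehicle replicate 1 (-0.22, 0.10). CCNT1 went from 180.3 ± 14.2 CPM in Ishikawa through 152.5 ± 1.57 in Ishikawa-S33Y and 137.4 ± 15.2 in SNGM to 115.1 ± 2.35 in HEC265, with no neighbouring step called. The last step was called with quantile normalization (-0.36, limma adjusted p = 0.0016) and with limma voom on recovered reads (-0.25, 0.045). The step from Ishikawa-S33Y to SNGM was called with quantile normalization (-0.29, limma adjusted p = 0.0066).

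Both TFIIH genes had their highest mean level in Ishikawa. CCNH was at 51.8 ± 3.60 CPM in Ishikawa, above SNGM at 35.7 ± 1.56 (limma adjusted p = 0.0020), then HEC265 at 32.5 ± 0.545 and Ishikawa-S33Y at 27.1 ± 0.210. CDK7 was at 33.3 ± 0.322 CPM in Ishikawa, 26.9 ± 0.272 in HEC265, 23.1 ± 0.313 in Ishikawa-S33Y and 16.8 ± 2.27 in SNGM, and no neighbouring step was called. SNGM against Ishikawa-S33Y was called with limma voom on recovered reads (-0.47, limma adjusted p = 0.015). HEC265 against Ishikawa-S33Y was called with the length score (0.42, limma adjusted p = 0.043). With the length score as a covariate, CCNH in SNGM against Ishikawa went from -0.52 to 0.040 (limma adjusted p = 0.90) and CDK7 in HEC265 against Ishikawa went from -0.30 to 0.38, neither of them called. With re-centred medians that CCNH difference was -0.38 (limma adjusted p = 0.061).

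For the elongation kinases, CDK12 lay between 95.2 and 132.2 CPM and CDK13 between 92.1 and 112.8 CPM over the 4 line means on vehicle, with no neighbouring step called for either. With only the compared lines fitted, HEC265 against Ishikawa-S33Y was called for CDK12 (-0.42, limma adjusted p = 5.7e-05) and CDK13 (0.19, 0.0031). For CDK13 it was also called with re-centred medians (0.38, limma adjusted p = 0.0044). CCNK formed a pair of levels, with Ishikawa-S33Y at 119.5 ± 0.685 CPM and HEC265 at 117.5 ± 1.01, above Ishikawa at 72.4 ± 14.1 and SNGM at 56.3 ± 10.8 (limma adjusted p = 0.024 for HEC265 against Ishikawa). With the length score as a covariate, CDK12 turned direction in 5 of the 6 pairs of lines, for example to -0.67 on the log2 scale in Ishikawa-S33Y against Ishikawa. The exception, HEC265 against Ishikawa-S33Y, went from -0.42 to -0.92 and was then called (limma adjusted p = 6.5e-06). CCNK in Ishikawa-S33Y against Ishikawa went from 0.73 to -0.16. Line and score cannot be told apart in these fits, so the turned values are not estimates free of the score. CCNK in HEC265 against Ishikawa also lost its call without Ishikawa vehicle replicate 1 (0.51, limma adjusted p = 0.19).

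**Figure D1:**
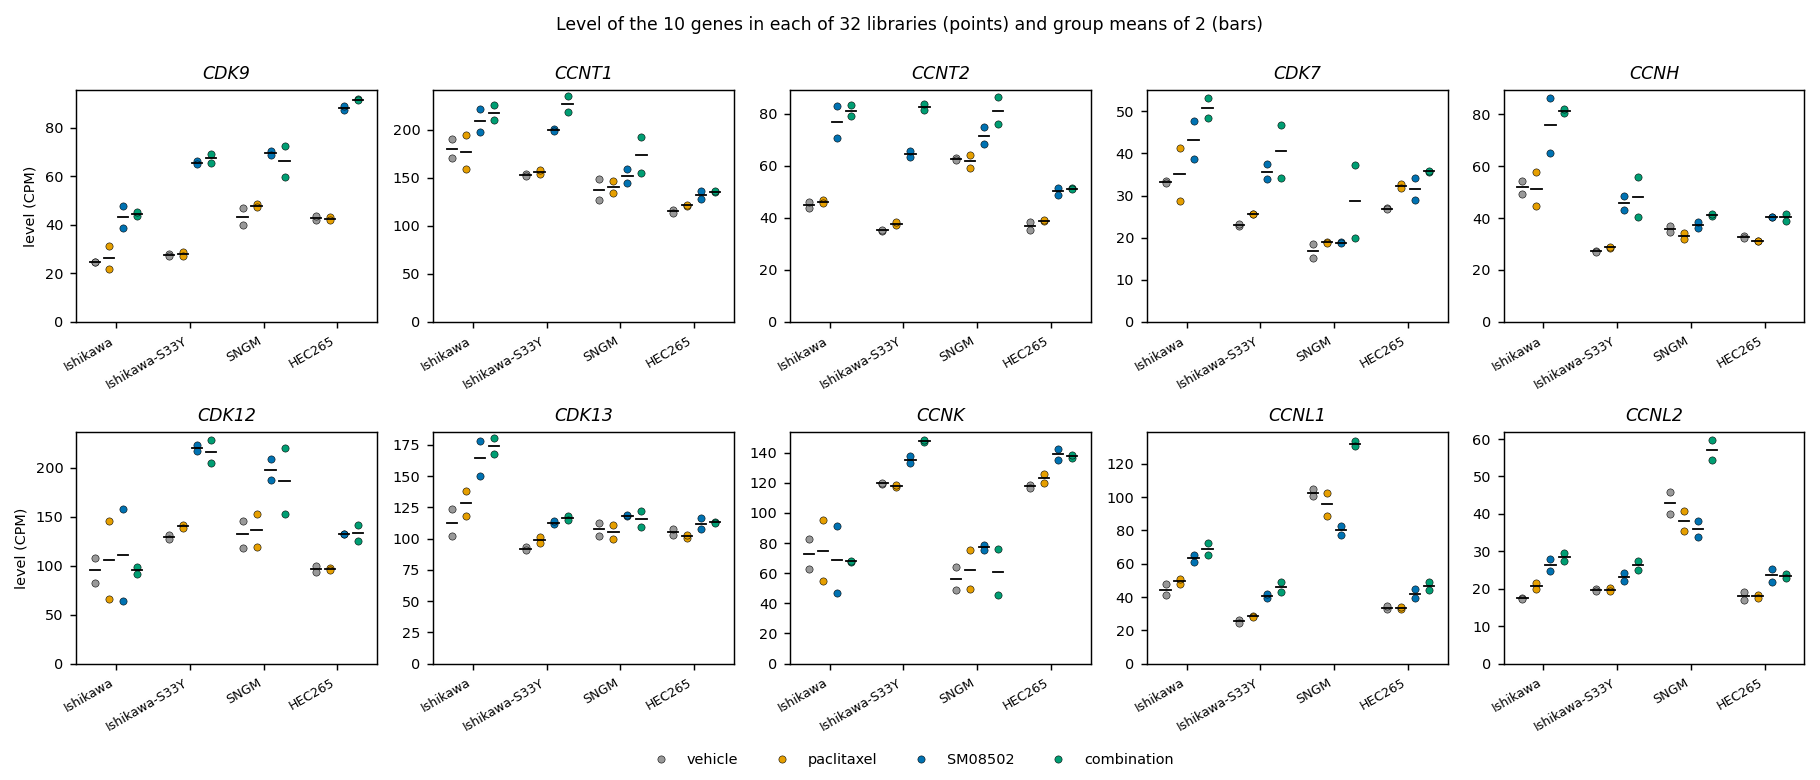
Level of each gene in CPM (linear axis from 0) in all 32 libraries, by cell line on the horizontal axis; points are libraries coloured by treatment and bars are means of 2. CDK9 and CCNT2 in libraries with SM08502 lie above those without it in all 4 lines, and CCNL1 and CCNL2 stand highest in SNGM.

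SM08502 alone raised most of these RNAs. Averaged over the 4 lines, 9 of the 10 genes were called higher than vehicle and none lower, where 22.6% of all tested genes were called higher and 15.8% lower. CDK9 rose by 0.93 on the log2 scale, CCNT2 by 0.56, CDK12 by 0.47 and CCNH by 0.41, and the other 5 called genes rose by 0.23 to 0.33. The exception was CCNK, with a difference of 0.19 (95% interval -0.09 to 0.46). The median over the 10 was 0.31, against 0.05 over all tested genes.

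CDK9, the kinase of P-TEFb, changed most. In Ishikawa it was at 24.6 CPM in both vehicle libraries and at 47.6 and 38.6 CPM with SM08502. In Ishikawa-S33Y it went from 28.1 and 27.0 CPM to 66.1 and 64.9 CPM. In HEC265 it went from 41.8 and 43.6 CPM to 87.4 and 89.0 CPM. SNGM, which received the highest dose in nM, started from 46.8 and 39.9 CPM and reached 70.2 and 68.9 CPM. In each line both SM08502 libraries were above both vehicle libraries, with no overlap. The differences were 0.78 ± 0.13 (SE) in Ishikawa, 1.22 ± 0.13 in Ishikawa-S33Y, 1.03 ± 0.13 in HEC265 and 0.68 ± 0.13 in SNGM, all 4 called (limma adjusted p of 3.9e-04, 1.1e-06, 1.7e-05 and 0.0018). In the mean over lines CDK9 ranked 72nd from the top of 17011 genes (limma adjusted p = 8.7e-10). A test for a difference in its effect between lines was not called (F = 3.66, limma adjusted p = 0.13), but was with quantile normalization (0.028), with the length score (0.0081), without Ishikawa SM08502 replicate 1 (0.049) and without either Ishikawa paclitaxel library (0.025 each).

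CCNT2, a cyclin partner of CDK9, rose in the mean over lines by 0.56 ± 0.04 (SE; limma adjusted p = 5.9e-09). Its levels went from 43.7 and 46.1 CPM to 70.7 and 82.8 CPM in Ishikawa, and from 35.0 and 35.4 CPM to 63.5 and 65.7 CPM in Ishikawa-S33Y. They went from 35.4 and 38.5 CPM to 51.4 and 48.8 CPM in HEC265. In SNGM they were 63.1 and 62.3 CPM on vehicle and 68.2 and 74.8 CPM with SM08502, without overlap but with a difference of 0.19 that was not called (limma adjusted p = 0.25). The other 3 lines were called, with 0.76, 0.86 and 0.43 in that order. CCNT1, the other cyclin T, rose by 0.24 in the mean and was called by itself in Ishikawa-S33Y, from 153.6 and 151.3 CPM to 200.4 and 198.7 CPM (0.39, limma adjusted p = 0.013). Without any 1 of those 4 libraries the adjusted p was between 0.058 and 0.074 (limma).

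Of the TFIIH pair, CCNH was called in both lines that share the Ishikawa name. It went from 54.4 and 49.3 CPM to 65.1 and 86.4 CPM in Ishikawa (0.53, limma adjusted p = 0.013; 0.32 and 0.24 without SM08502 replicate 2) and from 27.3 and 27.0 CPM to 43.1 and 48.6 CPM in Ishikawa-S33Y (0.74, limma adjusted p = 4.1e-04). In SNGM its libraries overlapped, at 36.8 and 34.6 CPM on vehicle and 36.2 and 38.4 CPM with the inhibitor. In HEC265 it went from 32.9 and 32.1 CPM to 40.5 and 40.3 CPM, a difference of 0.31 that was not called. With each line fitted on its own libraries, CCNH was called in HEC265 (limma adjusted p = 0.0031) and not in Ishikawa (0.20). The test of a difference between lines was not called for CCNH (limma adjusted p = 0.081), but was with the length score (0.013), with limma voom on recovered reads (0.040), without both shallow libraries (0.026), without Ishikawa SM08502 replicate 1 (0.021) and without any 1 of both Ishikawa paclitaxel and both Ishikawa-S33Y combination libraries (0.036 to 0.037). CDK7 rose by 0.33 in the mean over lines (limma adjusted p = 0.012) and was called by itself in Ishikawa-S33Y only, where it went from 22.9 and 23.3 CPM to 33.9 and 37.4 CPM. Without any one of those 4 libraries that call was lost (limma adjusted p between 0.068 and 0.16).

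CDK12 stood higher on SM08502 in both libraries of the 3 lines other than Ishikawa, although no single line was called (SE of 0.30 in each, from the spread of all 32 libraries). With each line fitted on its own libraries, CDK12 was called in Ishikawa-S33Y (0.76, limma adjusted p = 2.0e-04) and HEC265 (0.45, 0.0039). In such fits it was not called in SNGM (0.59, 0.29) or Ishikawa (0.10, 0.94). It went from 131.1 and 127.8 CPM to 223.6 and 216.8 CPM in Ishikawa-S33Y, from 118.3 and 146.0 to 208.6 and 187.5 in SNGM, and from 99.7 and 94.1 to 132.6 and 132.8 in HEC265. In Ishikawa the SM08502 libraries stood at 158.4 and 64.3 CPM, on either side of vehicle at 82.1 and 108.2 CPM. The mean over lines was 0.47 ± 0.15 (limma adjusted p = 0.017), and without Ishikawa SM08502 replicate 1 it was 0.31 (limma adjusted p = 0.051). With the length score as a covariate the mean was 0.70 (limma adjusted p = 6.9e-08), and CDK12 was called in Ishikawa-S33Y (0.99), SNGM (0.79) and HEC265 (0.80) but not in Ishikawa (0.23). The score itself was lower with SM08502 than on vehicle in HEC265 (-0.93 and -1.06, against -0.55 and -0.66). The same held in Ishikawa-S33Y (-1.38 and -1.45, against -1.09 and -1.24) and SNGM (-0.15 and -0.12, against -0.11 and 0.29). In Ishikawa the scores overlapped. A fit with this covariate therefore cannot tell the drug from the score.

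The split of the Ishikawa libraries for CDK12 was shared by CCNK and by the length score. SM08502 replicate 1 had a length score of -2.16, 158.4 CPM of CDK12 and 91.2 CPM of CCNK. Replicate 2 had -2.89, 64.3 CPM and 46.8 CPM. Paclitaxel replicate 1 (-1.40) had 145.9 CPM of CDK12 and 95 CPM of CCNK, and replicate 2 (-2.94) had 65.7 and 54.7 CPM. CDK9 was also higher in replicate 1 of each of these groups, but both of its SM08502 libraries (47.6 and 38.6 CPM) were above both paclitaxel libraries (31.4 and 21.6 CPM). CDK7 and CCNH split the opposite way, at 38.7 and 47.7 CPM and at 65.1 and 86.4 CPM in SM08502 replicates 1 and 2. Over the 8 Ishikawa libraries, Pearson's r with the score was 0.85 for CDK12, 0.87 for CCNK, -0.77 for CDK7 and -0.68 for CCNH. For the other genes it lay between -0.37 and 0.03. With the length score as a covariate, the mean change of CCNK was 0.37 (limma adjusted p = 7.3e-04). Without the Ishikawa libraries it was 0.29 (limma adjusted p = 0.042), and without Ishikawa SM08502 replicate 2 it was 0.30 (limma adjusted p = 0.049). What part the length score has in these levels was not tested further.

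**Figure D2:**
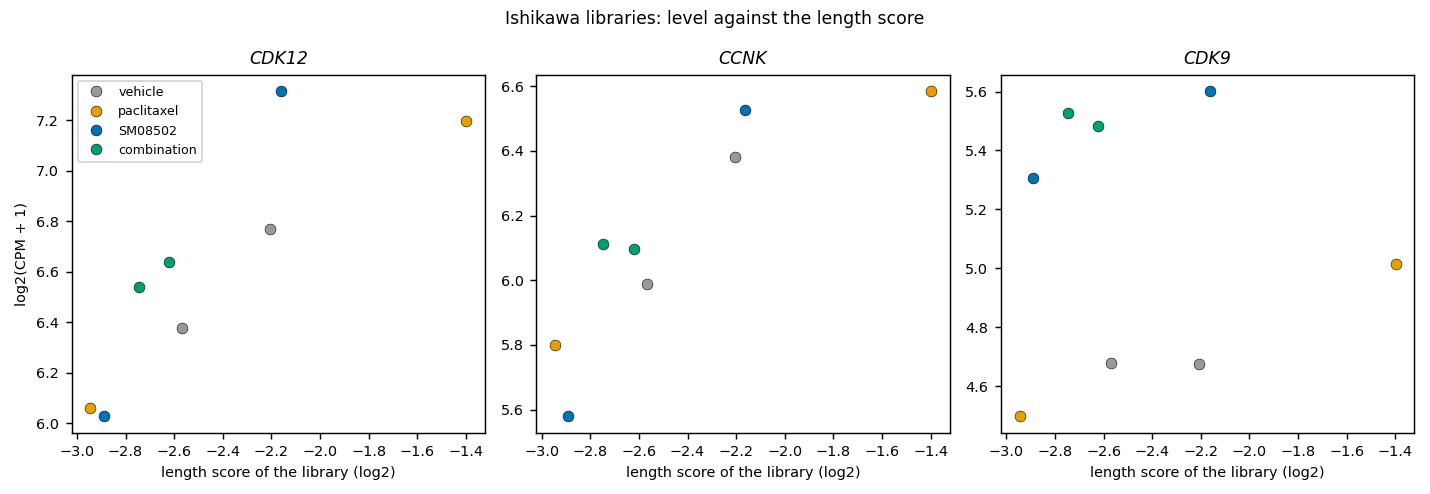
Level of CDK12, CCNK and CDK9, as log2(CPM + 1), against the length score (log2) in the 8 Ishikawa libraries, coloured by treatment. The SM08502 libraries at -2.16 and -2.89 stand far apart for CDK12 and CCNK, while for CDK9 both SM08502 and both combination libraries lie above the other 4.

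CDK13, the other kinase that pairs with cyclin K, rose by 0.27 in the mean over lines (limma adjusted p = 3.7e-04). In Ishikawa it went from 102.0 and 123.6 CPM to 150.6 and 178.1 CPM (0.54, limma adjusted p = 0.0014). In Ishikawa-S33Y it went from 93.1 and 91.0 CPM to 111.4 and 114.5 CPM (0.29, limma adjusted p = 0.039; 0.11 to 0.18 without any 1 of those 4 libraries). In SNGM and HEC265 its differences were 0.14 and 0.09 and were not called. With no covariate in the fit to all 32 libraries, CCNK was not called in any line. Its differences ran from -0.13 in Ishikawa to 0.46 in SNGM. With each line fitted on its own libraries, CCNK was called in Ishikawa-S33Y (0.18, limma adjusted p = 0.017) and HEC265 (0.24, 0.0047). In such fits it was not called in Ishikawa or SNGM (limma adjusted p of 0.88 and 0.58).

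The cyclins L divided the lines. CCNL1 went up from 41.1 and 47.9 CPM to 61.3 and 65.1 CPM in Ishikawa, from 26.3 and 24.7 CPM to 39.7 and 41.6 CPM in Ishikawa-S33Y, and from 32.7 and 34.5 CPM to 44.6 and 39.2 CPM in HEC265. In SNGM, where it started highest, it was at 100.8 and 104.8 CPM on vehicle and at 77.5 and 82.8 CPM with SM08502. No libraries overlapped in any line, and SNGM went the opposite way. The differences were 0.50, 0.65, 0.31 and, in SNGM, -0.36 (limma adjusted p of 0.0022, 7.3e-05, 0.045 and 0.033). The SNGM value was the single decrease called among the 10 genes in that line, where 4.06% of all genes were called lower. It was not called with each library re-centred on its median (-0.34, limma adjusted p = 0.093), with quantile normalization (-0.34, limma adjusted p = 0.072), or without any 1 of its 4 libraries (0.081 to 0.25). The HEC265 value was likewise lost without any 1 of its 4 libraries (0.061 to 0.37).

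CCNL2 followed the same pattern at lower CPM. It was at 17.6 and 17.3 CPM on vehicle and 24.8 and 27.9 CPM with SM08502 in Ishikawa (0.57, limma adjusted p = 0.0016), and at 17.0 and 19.3 CPM and 25.3 and 21.9 CPM in HEC265 (0.36, limma adjusted p = 0.031). In Ishikawa-S33Y it stood at 19.9 and 19.3 CPM and then 24.1 and 22 CPM, a difference of 0.22 that was not called. In SNGM it was at 40.1 and 45.9 CPM on vehicle and 38.1 and 33.9 CPM with the inhibitor, a difference of -0.25 that was not called (limma adjusted p = 0.21). Its mean over the 4 lines was 0.23, and 0.11 without the Ishikawa libraries (limma adjusted p = 0.16).

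The size of the SM08502 effect differed between the 4 lines for 3 of the 10 genes, CCNL1 (F = 19.2, limma adjusted p = 5.0e-04), CCNT2 (F = 11.9, limma adjusted p = 0.0038) and CCNL2 (F = 9.79, limma adjusted p = 0.0083). Of all tested genes, 12.4% were called in this test. SNGM had the lowest value of the 4 lines for each of the 3. All 3 stayed called under every alternative run, including each of the 32 fits without 1 library.

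Line by line, SM08502 alone gave 6 genes called higher in Ishikawa (6.5% of all genes), 7 in Ishikawa-S33Y (18.5%), 1 in SNGM (3.8%), which was CDK9, and 4 in HEC265 (9.27%), which were CDK9, CCNT2, CCNL1 and CCNL2. With the lower value of CCNL1 in SNGM that made 19 calls in 40 gene and line pairs. These calls used the spread of all 32 libraries. With each line fitted on its own 8 libraries, the 6 calls in Ishikawa and both in SNGM were lost and 6 were gained in Ishikawa-S33Y and HEC265, which left 17. Those gained were CDK12 and CCNK in both of these lines, and CCNH and CCNT1 in HEC265. The share of all genes called in these single-line fits is not given here. The losses and gains therefore cannot be read as particular to these genes. In HEC265, re-centring each library on its median left 0.21 for CCNL1, 0.27 for CCNL2 and 0.33 for CCNT2, which were then not called (limma adjusted p of 0.30, 0.18 and 0.070). The median of all genes moved by more than 0.1 in Ishikawa-S33Y only, where it was 0.11. In the fits of single lines CDK9 had an adjusted p of 0.12 in Ishikawa and 0.077 in SNGM (limma).

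**Figure D3:**
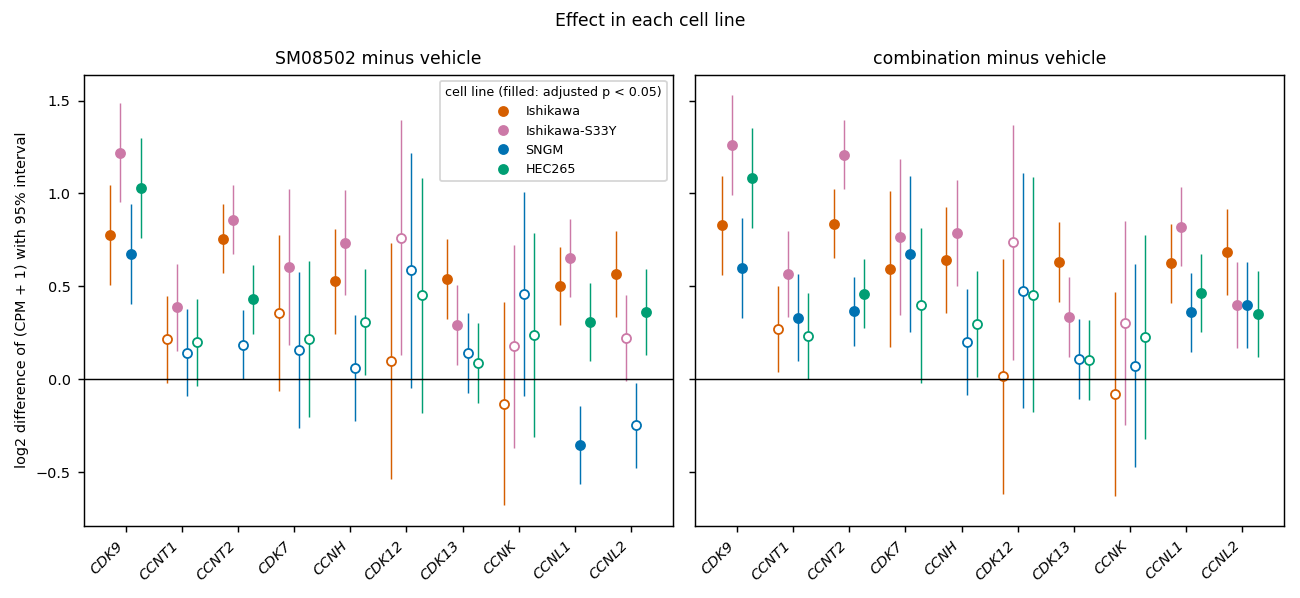
Difference from vehicle on the log2(CPM + 1) scale with its 95% interval, for SM08502 (left) and the combination (right), in each cell line; filled points have an adjusted p under 0.05. CDK9 is filled in all 4 lines on both sides, and CCNL1 in SNGM lies at -0.36 on the left and at 0.36 on the right.

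On paclitaxel alone none of the 10 genes was called in any line or in the mean over lines. Calls over all genes were as few, with 0.0118% called in either direction in Ishikawa, 0.0% in Ishikawa-S33Y, 0.0176% in SNGM, 0.00588% in HEC265 and 0.0% in the mean. At an unadjusted p under 0.05, 1 of the 10 genes passed in Ishikawa and 0 in each other line and in the mean (limma), and every alternative also called 0. The mean differences lay between -0.03 for CCNH and 0.15 for CDK7. The 95% intervals of these means were widest for CDK12, from -0.26 to 0.37, and for CDK9 the interval was -0.08 to 0.19. In single lines the intervals reached as low as -0.63 (HEC265) and as high as 0.75 (Ishikawa-S33Y), so changes of that size were not excluded.

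Combination libraries were set against those on vehicle and those on paclitaxel. The contrast with paclitaxel asks for the effect of SM08502 in cells that also had the taxane, and it shares no library with SM08502 against vehicle. In the mean over lines it called 8 of the 10 genes higher (25.7% of all genes), which were CDK9, CCNT2, CCNL1, CCNH, CDK7, CCNL2, CCNT1 and CDK13. CDK9 was 0.88 higher, CCNT2 0.67, CCNL1 0.51, CCNH 0.51, CDK7 0.46 and CCNL2 0.44. CDK12 was at 0.37 (limma adjusted p = 0.054) and CCNK at 0.09 (95% interval -0.19 to 0.36). All 8 calls stayed in every alternative run. Without the Ishikawa libraries CDK12 was at 0.50 (limma adjusted p = 9.8e-05).

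**Figure D4:**
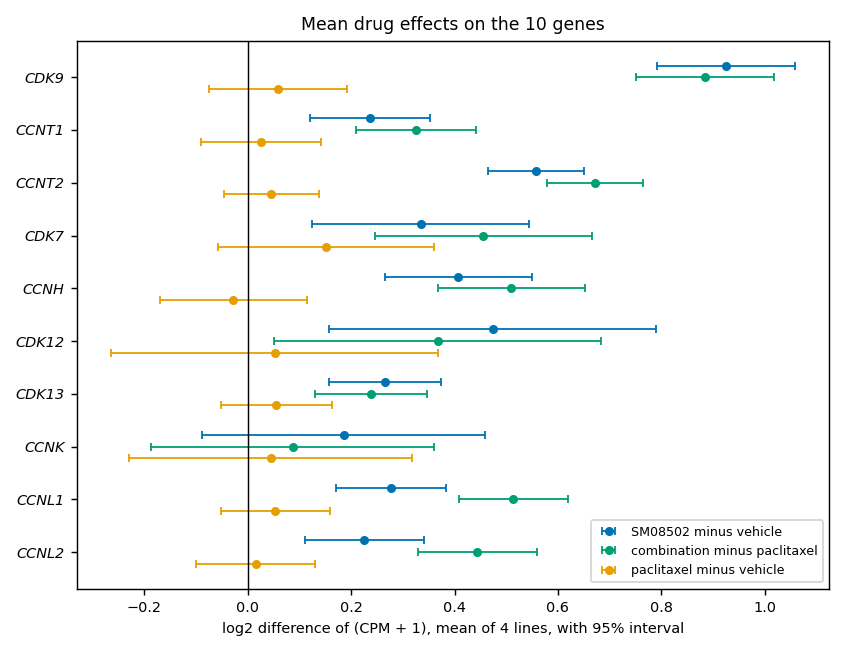
Mean difference over the 4 lines on the log2(CPM + 1) scale with its 95% interval, for SM08502 against vehicle, the combination against paclitaxel and paclitaxel against vehicle. CDK9 is at 0.93 and 0.88 in the contrasts with SM08502 added, all paclitaxel intervals include 0, and the intervals of CDK12 and CCNK are the widest.

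In single lines, the combination against paclitaxel called 6 genes higher in Ishikawa (8.3% of all genes), 7 in Ishikawa-S33Y (22.1%), 4 in HEC265 (8.39%) and 4 in SNGM (9.28%). CDK9, CCNT2, CCNL1 and CCNL2 were called in each of the 4 lines. Of those calls, CDK9, CCNL1 and CCNT2 in Ishikawa-S33Y and CDK9 in HEC265 held in every alternative run. CDK9 was at 31.4 and 21.6 CPM on paclitaxel and 43.8 and 45.1 CPM on the combination in Ishikawa. It went from 28.6 and 27.2 to 69.4 and 65.5 CPM in Ishikawa-S33Y, and from 43.0 and 41.9 to 92.0 and 91.3 CPM in HEC265. In SNGM it went from 48.4 and 47.2 to 72.6 and 59.7 CPM, the smallest of its differences (0.45, limma adjusted p = 0.021). That call was lost without either SNGM paclitaxel library or without combination replicate 1 (limma adjusted p between 0.078 and 0.12).

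Against vehicle, the combination called 9 of the 10 genes higher in the mean over lines (29.0% of all genes), all but CCNK. CDK12, at 0.42 (limma adjusted p = 0.027), lost that call with no filter (0.062) and without any 1 of 6 libraries (0.050 to 0.068), namely Ishikawa vehicle 1 or combination 1, Ishikawa-S33Y combination 2, SNGM vehicle 1 or combination 1, and HEC265 combination 2. In single lines the combination called 7 genes in Ishikawa (11.6%), 8 in Ishikawa-S33Y (24.0%), 4 in HEC265 (12.4%) and 6 in SNGM (10.8%). With Ishikawa fitted on its own libraries, CCNT2 alone of its 7 calls was kept, and the other 6 had an adjusted p of 0.056 to 0.14 (limma). The share of all genes called in that fit is not given here. In HEC265, CCNL2 was not called with re-centred medians (0.24, limma adjusted p = 0.20). CCNT2 in Ishikawa-S33Y was at 81.6 and 83.6 CPM, against 35.0 and 35.4 CPM on vehicle, a difference of 1.21 ± 0.09 (SE; limma adjusted p = 4.4e-09). CCNT1 in the same line was at 217.9 and 235.0 CPM against 153.6 and 151.3 CPM (0.57, limma adjusted p = 3.7e-04). CDK7 in that line was at 34.1 CPM in the first combination library and 46.8 CPM in the second, the library of 2.99 M reads. There it had 140 reads, and without that library its difference from vehicle fell from 0.77 to 0.54. In SNGM, CDK7 was at 19.9 CPM in the first combination library and 37.3 CPM in the second, the library of 1.61 M reads, where it had 60 reads. Without that library its difference from vehicle fell from 0.67 to 0.24 and was not called (limma adjusted p = 0.51). CCNT1 (0.18, limma adjusted p = 0.46), CCNT2 (0.27, 0.11), CCNL1 (0.38, 0.061) and CCNL2 (0.33, 0.12) in SNGM were also not called without it. CDK9 in SNGM was not called without vehicle replicate 2 (0.48, limma adjusted p = 0.059).

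All libraries with SM08502, alone or in the combination, were also set against all those without it in the same line. The 4 libraries with the inhibitor lay above the 4 without it in all 4 lines for CDK9 and CCNT2, which 2.45% of all tested genes did. CDK13, CCNH, CCNL1, CCNL2 and CCNT1 did so in 3 lines, each in all but SNGM. CDK12 and CCNK did so in Ishikawa-S33Y and HEC265, and CDK7 in Ishikawa-S33Y. Over all genes, 12.0% did so in Ishikawa, 32.3% in Ishikawa-S33Y, 30.4% in HEC265 and 12.0% in SNGM.

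For paclitaxel added to SM08502, 2 of the 10 genes were called in SNGM, the cyclins L, and 0 in each other line. CCNL1 in SNGM was at 77.5 and 82.8 CPM on SM08502 and 133.7 and 130.7 CPM on the combination (0.72, limma adjusted p = 0.010). CCNL2 was at 38.1 and 33.9 CPM and then 54.3 and 59.7 CPM (0.65, limma adjusted p = 0.023). Both combination libraries were also above both vehicle libraries for each gene. With SNGM fitted on its own libraries, neither difference from SM08502 was called (limma adjusted p = 0.69 for each gene). Without SNGM combination replicate 2 the adjusted p was 0.064 for CCNL1 and 0.31 for CCNL2, and without SM08502 replicate 1 or 2 it was 0.093 or 0.12 for CCNL1 and 0.093 or 0.41 for CCNL2 (limma). Of all genes, 0.253% were called in SNGM, 0.129% in Ishikawa-S33Y, 0.00588% in HEC265 and 0.0% in Ishikawa. In the mean over lines, CCNL1 was called (0.29, limma adjusted p = 0.031; 0.047% of all genes). That call was lost in many of the fits without 1 library, with an adjusted p of up to 0.16. Departure of the combination from the sum of both single-drug effects called none of the 10 genes and 0.0% of all genes, with CCNL1 (0.24) and CCNL2 (0.22) at an unadjusted p under 0.05 (limma).

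Genes that partner or regulate these kinases were counted in 8 lists. Of 66 genes, 65 were tested, and in the mean over lines SM08502 alone called 20 higher and 4 lower, where 22.6% of all genes were called higher and 15.8% lower. The combination against paclitaxel called 20 higher and 6 lower (25.7% and 19.1% of all genes). Paclitaxel alone called 0 (limma; 0.0% of all genes).

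Among the kinases close to these, 1 of 4 tested genes in the list of CDK11, CDK10 and TFIIH kinase partners was called higher on SM08502. It was CDK11A, a partner of the cyclins L, at 0.32, and it is uncertain because CDK11B is a near-identical copy. The CDK11A libraries overlapped in SNGM (5.62 and 6.45 CPM, then 7.23 and 5.34 CPM). In the Mediator kinase module, which also phosphorylates the transcription machinery, 2 of 6 genes rose and 1 fell. CDK8 rose by 0.21 and its paralog CDK19 fell by 0.24. The CDK8 libraries overlapped in SNGM (46.9 and 40.2 CPM, then 43.7 and 45.8 CPM). CDK19 went from 55.5 and 55.3 CPM to 42.5 and 42.3 CPM in HEC265, and in SNGM it did not go down, at 73.4 and 73.6 CPM and then 73.7 and 75.9 CPM.

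Of the genes that hold P-TEFb in the inactive 7SK complex or release it, 1 of 5 was called, LARP7, which stabilises the 7SK RNA, at 0.30. Its Ishikawa libraries overlapped (27.4 and 36.9 CPM, then 41.6 and 32.2 CPM). In the super elongation complex, which brings P-TEFb to genes, 3 of 9 rose and 1 fell. ELL2, an elongation factor of the complex, rose by 0.43 and went from 19.1 and 18.9 CPM to 35.3 and 37.8 CPM in Ishikawa-S33Y, while its SNGM libraries overlapped (48.7 and 43.8 CPM, then 46.1 and 53.5 CPM). AFF1, a scaffold of the complex, was the largest fall at -0.54, from 241.2 and 230.2 CPM to 146.9 and 150.4 CPM in HEC265, while its libraries overlapped in SNGM (144.6 and 180.1 CPM, then 144.8 and 143.0 CPM) and in Ishikawa (73.9 and 106.6 CPM, then 80.9 and 53.6 CPM).

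Of the pausing and elongation factors, 6 of 13 rose and 1 fell, with SUPT4H1, a subunit of the pausing factor DSIF, at 0.45 and RTF1, a PAF complex factor, at -0.28. Of the RNA polymerase II subunits, 4 of 12 rose, with POLR2G at 0.46. Of the phosphatases and readers of the polymerase tail, 1 of 8 rose, the phosphatase RPAP2 at 0.49. In SNGM the RPAP2 libraries overlapped (110.5 and 147.5 CPM, then 147.5 and 97.6 CPM). The medians of these lists lay between 0.01 and 0.23, against 0.05 over all genes.

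DNA repair genes that depend on CDK12 for their full-length transcripts were listed as well. On SM08502, 2 of 8 rose and 1 fell. ATR, a kinase of the replication stress response, rose by 0.47, from 37.2 and 38.8 CPM to 58.7 and 68.6 CPM in Ishikawa and from 88.6 and 86.3 CPM to 106.3 and 121.9 CPM in SNGM. FANCI, of the Fanconi anaemia pathway, fell by 0.41, from 165.6 and 162.0 CPM to 123.4 and 121.4 CPM in HEC265. The list median was 0.06.

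For each of the 9 called genes, those with the most similar levels were sought among 10423 genes with a mean log2(CPM + 1) of at least 3. The measure was Pearson's r over the 32 libraries after centring each line on its mean, so the libraries, treatments and depths are shared by every pair. CDK9 was most like HLA-E (r = 0.98), USP30 and DHDDS. CCNT2 was most like ARHGAP5 (r = 0.98), ZNF644 and MED17, a Mediator subunit. CCNL1 was most like LUC7L (r = 0.93), TTC14 and PPHLN1, and CCNL2 most like RBM5 (r = 0.92), a splicing regulator, followed by CCNL1 itself (r = 0.89). CDK12 was most like SPECC1L (r = 0.96), CDK13 like MGA (r = 0.89), CDK7 like NSL1 (r = 0.94), CCNH like POP5 (r = 0.96) and CCNT1 like DDX18 (r = 0.94). Within the 10, CCNH and CCNT2 (r = 0.93) and CCNT1 and CCNT2 (r = 0.91) were closest, CDK12 went with CCNK (r = 0.85), and CDK7 with its partner CCNH (r = 0.81).

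Some of the 10 genes share ground with others in the RefSeq annotation (GRCh38.p14). CDK7 (chromosome 5, 69234795 to 69277430) overlaps CCDC125. CCNH (chromosome 5, 87311471 to 87412930) overlaps RASA1 and a long non-coding RNA gene, and CCNK (chromosome 14, 99481409 to 99512440) overlaps CCDC85C and SETD3. The strand used in counting is not given in the sources used here, so reads from shared exons could not be told apart. CDK9 (chromosome 9, 127786034 to 127790792), CDK13, CCNL1, CCNL2, CCNT1 and CCNT2 overlap no other annotated gene. CDK12 contains a small nuclear RNA gene and a pseudogene. CDK12 spans 106074 bases and CDK9 spans 4759, and the values here are sums over each gene that do not separate transcripts.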

How the data were processed

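RNA was measured in 32 libraries (4 cell lines, 4 treatments, 2 libraries per group), grouped by the labels' titles. The authors deposited a table of log10(CPM + 1) for 35238 genes. bcl2fastq, kallisto, STAR and the build GRCh38 are named in the submitters' processing notes; their roles, versions and the annotation are not given in the sources used here. Values were taken back to CPM. Whole reads were recovered for 100% of values (within 0.05 of a whole read), which gave the depth. Splicing tables mentioned in the labels were not used here.

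Genes above 1 CPM in at least 2 libraries were kept (17011). A limma model (limma 3.58.1, R 4.3.3; intensity trend, 1 mean per group, 16 residual degrees of freedom) was fitted to log2(CPM + 1) of all libraries, and p-values were adjusted over all 17011 genes by Benjamini-Hochberg, two-sided, with calls at 0.05. The pseudocount of 1 CPM understates changes of low genes. The fit was run on simulated data that had a common spread and no differences between lines. That run gives no error rates for these libraries. Tables and figures were made with pandas 2.3.3 and matplotlib 3.10.9 in Python 3.11.15. Values on a log2 scale had been foreseen in the plan; as the unit was log10, log2(CPM + 1) was computed from it. DNA sequences are RefSeq's (GRCh38.p14).

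The 10 genes and the lists were chosen with earlier results of these data known. All 10 are given in every comparison. From each list only the largest rise and the largest fall among genes called for SM08502 against vehicle in the mean over lines are named, and for each called member the 3 most similar genes were sought. Alternatives were a pseudocount of 0.1 CPM, no filter, a stricter filter, median re-centring, quantile normalization, no trend, a replicate block, the length score as a covariate, limma voom on recovered reads, fits without both shallow libraries, fits of the compared lines alone, and each library left out in turn; the crossed block and the fit without Ishikawa were chosen after seeing the data.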

Additional observations from a re-analysis of the deposited data

Results flagged for a closer look

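The SM08502 effect differed between the 4 cell lines, by a test of the difference itself (limma F test over all 32 libraries), for CCNL1 (F = 19.2), CCNL2 (F = 9.79) and CCNT2 (F = 11.9). SNGM had the lowest value for each, at -0.36, -0.25 and 0.19 on the log2 scale, and it also had the highest vehicle level of each, at 102.8, 43.0 and 62.7 CPM. The dose, the line and the vehicle level cannot be told apart here.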

How the results depend on the processing

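Of 330 values for single genes, 130 were called. Under 13 alternatives and 32 fits that left out 1 library each, 68 of these lost the call at least once and 59 uncalled values gained one. The uncalled values changed sign at least once in 78 cases. Of the 9 genes called for SM08502 in the mean over lines, 7 were called under every alternative (not CDK12 and CCNL2). In single lines, the calls that held in every alternative were CDK9, CCNH, CCNL1 and CCNT2 in Ishikawa-S33Y and CDK9 in HEC265. The length score did not overlap between lines on vehicle, so a fit with it cannot tell line from score. With the length score as a covariate, 29 values changed sign, of which 21 were called neither with it nor without it. The other 8 were CDK12 for the combination against paclitaxel in Ishikawa (0.43), CDK12 on vehicle for Ishikawa-S33Y (-0.67), SNGM (-1.80) and HEC265 (-1.60) against Ishikawa and for SNGM against Ishikawa-S33Y (-1.13), CCNK for Ishikawa-S33Y (-0.16) and HEC265 (-0.58) against Ishikawa, and CCNH for SNGM against Ishikawa (0.040); the cause was not tested. For the combination against SM08502, the 2 calls in single lines became 0 with median re-centring and 1 each with the replicate block, without both shallow libraries (fewer samples) and with the compared lines alone (fewer samples). With the compared lines alone, both cyclin L calls in SNGM were lost (limma adjusted p = 0.69 each). The 1 call there was a gained one, CCNT2 in Ishikawa-S33Y (0.35, limma adjusted p = 0.046). The 1 call in the mean became 0 with median re-centring, quantile normalization, no trend and the replicate block, and the cause was not tested. The 3 genes whose SM08502 effect differed between lines became 5 with quantile normalization and 7 with the length score; the cause was not tested.

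Leaving out 1 library at a time, with the lone sample assumed to vary like the other groups, gave 15 to 20 calls in single lines and 8 to 10 in the mean for SM08502 against vehicle. It gave 20 to 27 and 8 to 9 for the combination against vehicle, 18 to 24 and 8 to 9 against paclitaxel, and 0 to 4 and 0 to 4 against SM08502. Paclitaxel gave 0 to 0 in single lines and 0 to 0 in the mean, and non-additivity 0 to 0. The test between lines gave 3 to 6, and the vehicle differences 28 to 37.

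Whether the replicate numbers pair the libraries could not be settled. Some same-numbered libraries deviated together and others in opposite directions. The correlations of their deviations over 6083 genes ran from -0.57 to 0.86 in Ishikawa, -0.12 to 0.14 in Ishikawa-S33Y, -0.65 to 0.84 in SNGM and -0.15 to 0.33 in HEC265. With the replicate block, SM08502 against vehicle in the mean called 9 genes, as without it, and 16 gene and line pairs in place of 19. With the crossed numbers, chosen after seeing the data, it called 9 and 20. Depth limits mainly the combination groups of Ishikawa-S33Y and SNGM, where 1 of 2 libraries is shallow.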
